A study of Homo sapiens with 3 samples.

Results

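The heat shock chaperone genes examined here were 10 genes chosen by name, of 20163 protein-coding genes in the annotation. They comprised HSPA1A, HSPA8, HSPA9, HSP90AA1, HSP90AB1, HSPD1, HSPE1, HSPB1, HSPH1 and HSF1. Chromatin immunoprecipitation followed by sequencing (ChIP-seq), in which DNA bound to a modified histone is pulled down with an antibody and sequenced, was carried out in H2087, a human cell line established from a lung adenocarcinoma. The cells carried the label untreated, and no heat shock is described. The group for trimethylated lysine 4 of histone H3 (H3K4me3, antibody ab8580) and the group for acetylated lysine 27 (H3K27ac, antibody ab4729) each held 1 library, and an input library without antibody was not analysed here. With 1 library per mark there was no replicate, and no test between the marks or between genes was made.

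Chaperones bind unfolded proteins and help them to fold, to stay soluble or to be transported. HSP70 and HSP90 proteins use ATP for this, HSPD1 and HSPE1 form a folding chamber in mitochondria, small heat shock proteins hold unfolded proteins without ATP, and HSF1 is the transcription factor that binds heat shock elements and switches many of these genes on under stress. Several of the genes are also transcribed at high level in unstressed cells. H3K4me3 is typical of active promoters, and H3K27ac of active promoters and enhancers.

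The sequences before the gene starts are shown first, because they hold the heat shock elements against which the peaks were placed. A heat shock element is a row of 5-base units, NGAAN, in alternating orientation, and was searched on both strands from 250 bases before to 50 bases after the canonical start, which is the start of the Ensembl canonical transcript. Sequences are 5′ to 3′ on the strand of the gene, from the GRCh37 primary assembly (hg19), and capitals mark matches of 2 or 3 units. They are HSPA1A at chr6:31783170-31783319 on the plus strand, HSP90AA1 at chr14:102553382-102553531 on the minus strand, HSPB1 at chr7:75931790-75931989 on the plus strand, and short stretches around the 3-unit match of HSPA8 at chr11:122932879-122932908, HSPD1 at chr2:198364785-198364814 and HSPH1 at chr13:31736080-31736109, these 3 on the minus strand. HSP90AB1 at chr6:44214688-44214823 on the plus strand is shown for contrast, since no match was found there. All 30 bases printed for HSPA8, and likewise for HSPD1, lie in an annotated exon of the gene itself, upstream of its canonical start. The other stretches printed here hold no annotated exon bases.
HSPA1A: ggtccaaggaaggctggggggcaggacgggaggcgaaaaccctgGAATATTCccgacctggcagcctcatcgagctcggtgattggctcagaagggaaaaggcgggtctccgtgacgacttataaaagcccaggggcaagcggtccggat
HSP90AA1: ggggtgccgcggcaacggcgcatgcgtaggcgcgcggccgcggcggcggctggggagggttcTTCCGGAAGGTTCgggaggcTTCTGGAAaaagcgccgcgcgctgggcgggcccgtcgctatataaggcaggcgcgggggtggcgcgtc
HSPB1: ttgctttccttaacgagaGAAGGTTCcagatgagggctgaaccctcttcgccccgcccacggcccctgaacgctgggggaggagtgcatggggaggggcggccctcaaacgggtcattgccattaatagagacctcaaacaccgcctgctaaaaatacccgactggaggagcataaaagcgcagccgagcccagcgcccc
HSPA8: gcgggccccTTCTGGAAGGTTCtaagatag
HSPD1: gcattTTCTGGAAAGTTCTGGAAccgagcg
HSPH1: tgccgcagaTTCTGGAAAGTTCtgatcagt
HSP90AB1: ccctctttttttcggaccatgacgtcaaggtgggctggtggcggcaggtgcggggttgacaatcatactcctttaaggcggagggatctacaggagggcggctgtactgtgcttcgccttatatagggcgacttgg

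A match of 3 units without mismatch was present in 4 of the 10 promoters, those of HSPA8, HSP90AA1, HSPD1 and HSPH1. Over all 20140 promoters of the same length, 0.357% held one. With 2 units, spelled GAANNTTC or TTCNNGAA, the count was 7 of 10 against 11.1% of all promoters, and with 3 units and 1 mismatch it was again 7 of 10, against 4.65%. Both added HSPA1A, HSPA9 and HSPB1. No match of any kind was found in these windows of HSP90AB1, HSPE1 and HSF1, which says only that the letters are not there. The genes were chosen as heat shock genes, so the counts are descriptions. The letters TATAAA on the sense strand were found in HSPA1A alone (7.14% of all promoters), and CCAAT on either strand in HSPA1A, HSPA8, HSPH1 and HSF1 (35.9% of all promoters).

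Values of the peaks are given as follows. A peak is a distinct interval of the authors' list. Its height is the value of its highest summit, read as the −log10 q that the peak caller gave. A larger value stands for stronger statistical evidence of enrichment. Since the depth of the libraries is not known from peak lists, this value was compared only within the list of 1 mark, and a missing peak may reflect a missing mark or too few reads, which cannot be told apart. The H3K4me3 list held 18585 peaks with a median −log10 q of 2.97 and a median width of 305 bp. The H3K27ac list held 24096 peaks with medians of 2.65 and 284 bp. As a check of the cell line, 7 of 10 markers of lung epithelium and adenocarcinoma had H3K4me3 within 1 kb of the canonical start and 7 of 10 had H3K27ac, NAPSA, SFTPB and SFTPC being without either, and 0 of 7 markers of other cell types had a peak of either mark there. Over all protein-coding genes the shares were 41.3% for H3K4me3 and 25.2% for H3K27ac. PECAM1 was on the marker list but was not found among the protein-coding genes.

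H3K4me3 lay within 1 kb of the start in most of the 10 genes, while the count for H3K27ac depended on which annotated start was used. Measured from the outermost annotated 5′ end (the outer end), 8 of 10 had H3K4me3, against 38.2% of all protein-coding genes, and 2 of 10 had H3K27ac, against 23.6%. Both marks were present in 2 of 10, HSPA9 and HSPD1, against 18.6%, and 2 of 10, HSPA8 and HSP90AB1, had neither. The outer end lay over 500 bp from the canonical start in 4 of the 10 genes (HSP90AA1, HSPD1, HSPA8 and HSP90AB1) and in 21.3% of all genes, so the canonical start was added as an alternative after the data had been seen. From there, H3K4me3 was present in 9 of 10, all but HSP90AB1, against 41.3%. H3K27ac was present in 4 of 10 (HSPA8, HSPA9, HSP90AA1 and HSP90AB1), against 25.2%, and both marks in 3 of 10 (HSPA8, HSPA9 and HSP90AA1), against 20.4%. With that start none of the 10 lacked both marks. With the start of any annotated transcript, H3K4me3 was present in 9 of 10, against 45.4%, and H3K27ac in 6 of 10, against 30.7%. The H3K4me3 share of the members was thus above the background with every start, while the H3K27ac share was near it from the outer end. With the other starts the H3K27ac share was higher, but the counts are small and no test was made. Of the 64 other chaperone genes described below, 68.8% had H3K4me3 and 40.6% had H3K27ac at the canonical start. The only H3K4me3 peak counted at HSPA1A and at HSF1 lay nearer to a neighbour's canonical start, that of HSPA1L and BOP1. From the outer end the same held for HSP90AA1, with WDR20, and HSPD1, with MOB4. The H3K4me3 peaks counted at HSPE1 lay nearer to HSPD1 (164 bp) or to the separately annotated HSPE1-MOB4 (73 bp). From the canonical start the same peaks were counted for HSPD1. How often a counted peak lies nearer to a neighbour's start was not counted over all genes.

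**Figure D1:**
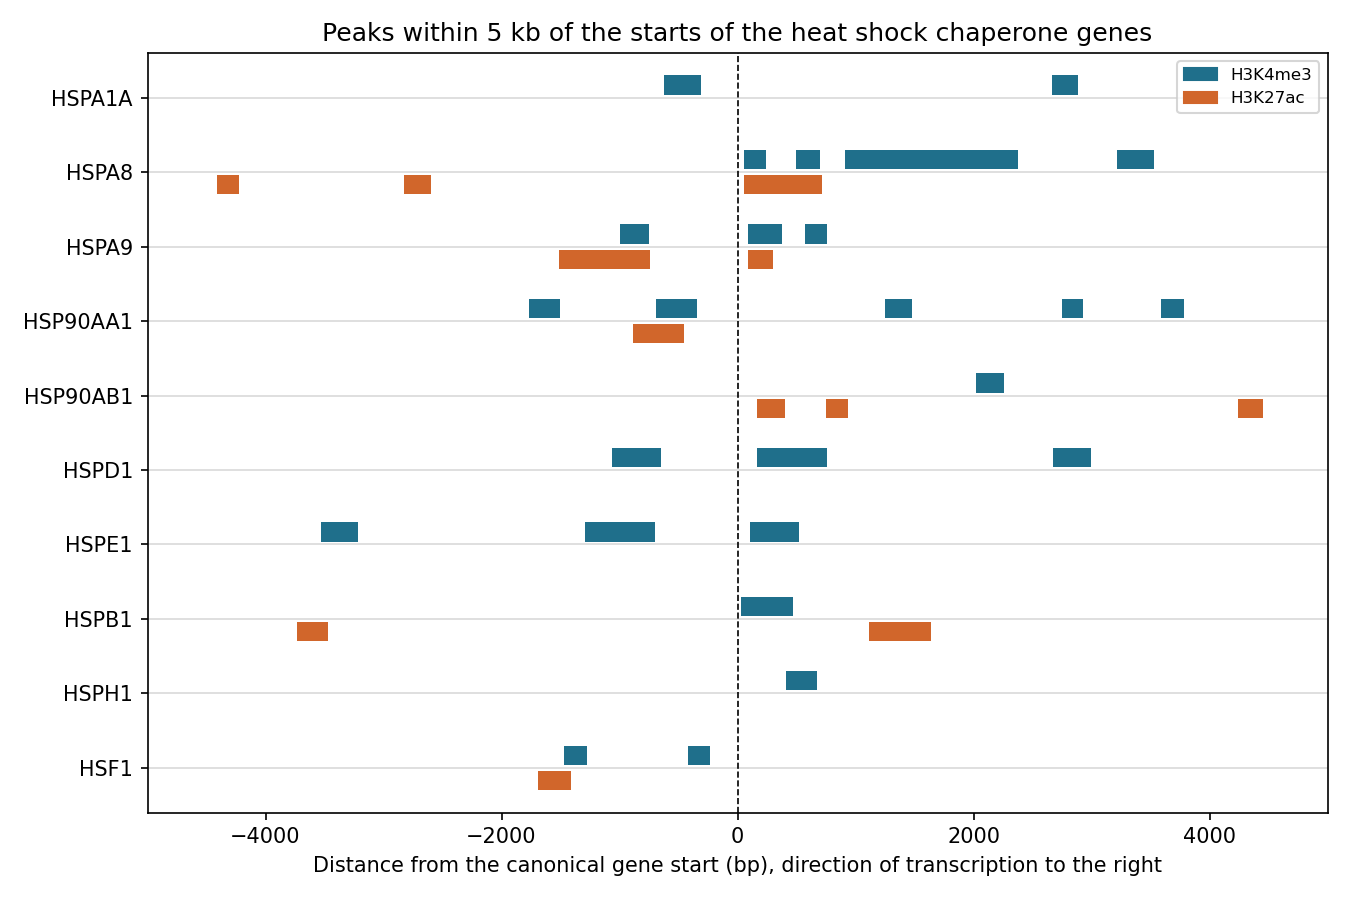
Peaks within 5 kb of the canonical start of each of the 10 genes, against the distance from the start in bp, with transcription to the right. Each bar is 1 peak drawn to scale (H3K4me3 blue, H3K27ac orange), the dashed line is the start, and no bar crosses it.

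The peaks lay beside the starts and did not cover them. Peaks within 1 kb lay on both sides of the canonical start only at HSPA9, HSPD1 and HSPE1, and on 1 side at the other genes. Of 15 pairs of an H3K4me3 peak and a gene with the peak within 1 kb of the canonical start, 6 lay wholly upstream, 9 wholly downstream and 0 across it. The pairs came from 13 distinct peaks. Those beside the HSPD1 and HSPE1 starts count for both genes, as downstream of 1 and upstream of the other. Of 6 such pairs for H3K27ac, 2 lay upstream, 4 downstream and 0 across. A peak across the canonical start was rare in general, being found in 2.95% of all protein-coding genes for H3K4me3 and 1.09% for H3K27ac, which is 5.35% of 11114 and 3.51% of 6261 peak-gene pairs. A count of 0 in the members was therefore near the background. The distance from one peak edge before the start to the next after it, over both marks, ranged from 809 bp between HSPD1 and HSPE1 and 828 bp at HSPA9 to 476559 bp at HSPH1.

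In the wider window, which is the gene body and 20 kb on each side, all 10 genes had at least 1 H3K4me3 peak, against 61.6% of all protein-coding genes, and 9 of 10 had H3K27ac, HSPH1 being the exception, against 54.2%. The windows held 38 distinct H3K4me3 and 29 distinct H3K27ac peaks. The median was 4.5 H3K4me3 peaks and 3 H3K27ac peaks per window, against 1 and 1 over all genes, and longer genes have wider windows. Only some of these peaks lay nearest to the start of a chaperone gene. The nearest protein-coding canonical start was that of a member for 22 of the 38 peaks of H3K4me3 and 16 of the 29 of H3K27ac. Within 1 kb of a member's canonical start lay 13 and 6 of the peaks. The 22 leave out an H3K4me3 peak 107 bp after the HSPE1 start, because the separately annotated HSPE1-MOB4 starts nearer to it, at 73 bp. Overlap of the marks by at least 1 bp was seen for 13 of the 38 and 12 of the 29.

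**Figure D2:**
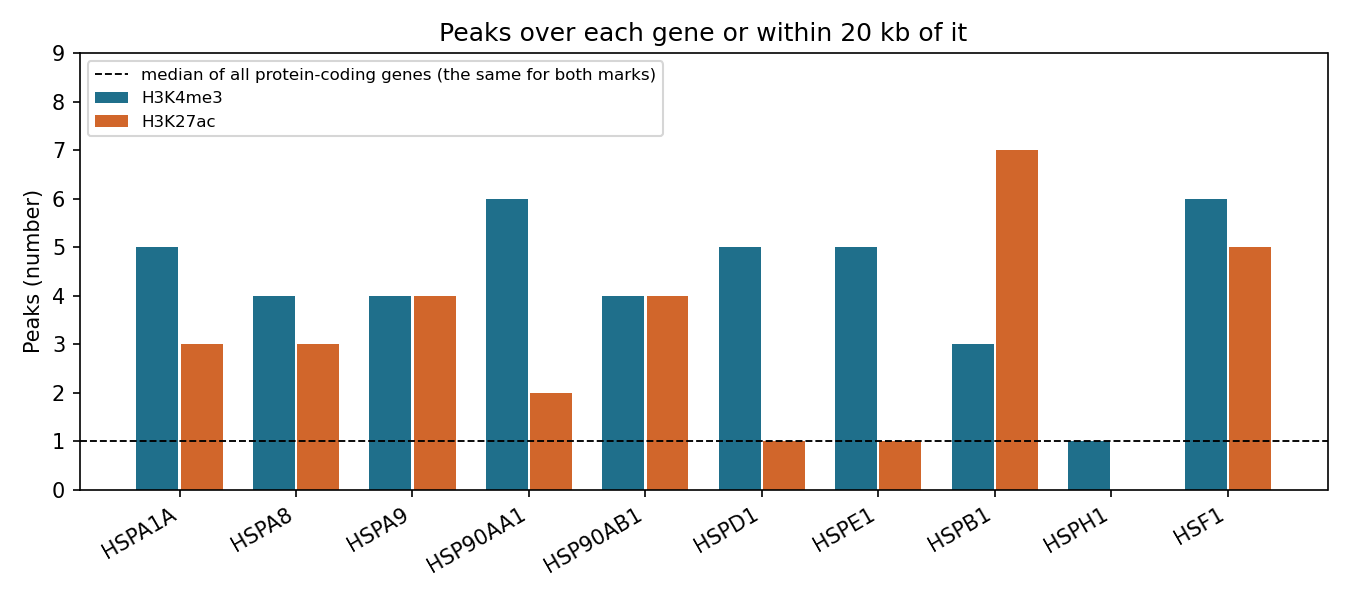
Number of distinct peaks over each gene or within 20 kb of it, for H3K4me3 (blue bars) and H3K27ac (orange bars), with a dashed line at the median of all protein-coding genes, 1 for both marks. HSP90AA1 and HSF1 had the most H3K4me3 peaks (6 each), HSPB1 the most H3K27ac peaks (7), and HSPH1 had 1 H3K4me3 peak and no H3K27ac peak.

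The canonical starts of the chaperone genes lay near an H3K4me3 peak, at a median distance of 199.5 bp against 10955 bp over all protein-coding genes. The nearest H3K27ac peak lay at a median of 1264.5 bp against 30073 bp. For H3K4me3 the distances ran from 28 bp at HSPB1 and 54 bp at HSPA8 to 407 bp at HSPH1 and 2024 bp at HSP90AB1. For H3K27ac they ran from 54 bp at HSPA8, 91 bp at HSPA9 and 163 bp at HSP90AB1 to 16292 bp at HSPD1 and 122012 bp at HSPH1. HSP90AB1 was the only one of the 10 with its nearest H3K27ac peak closer than its nearest H3K4me3 peak, and at HSPA8 both marks were equally close.

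**Figure D3:**
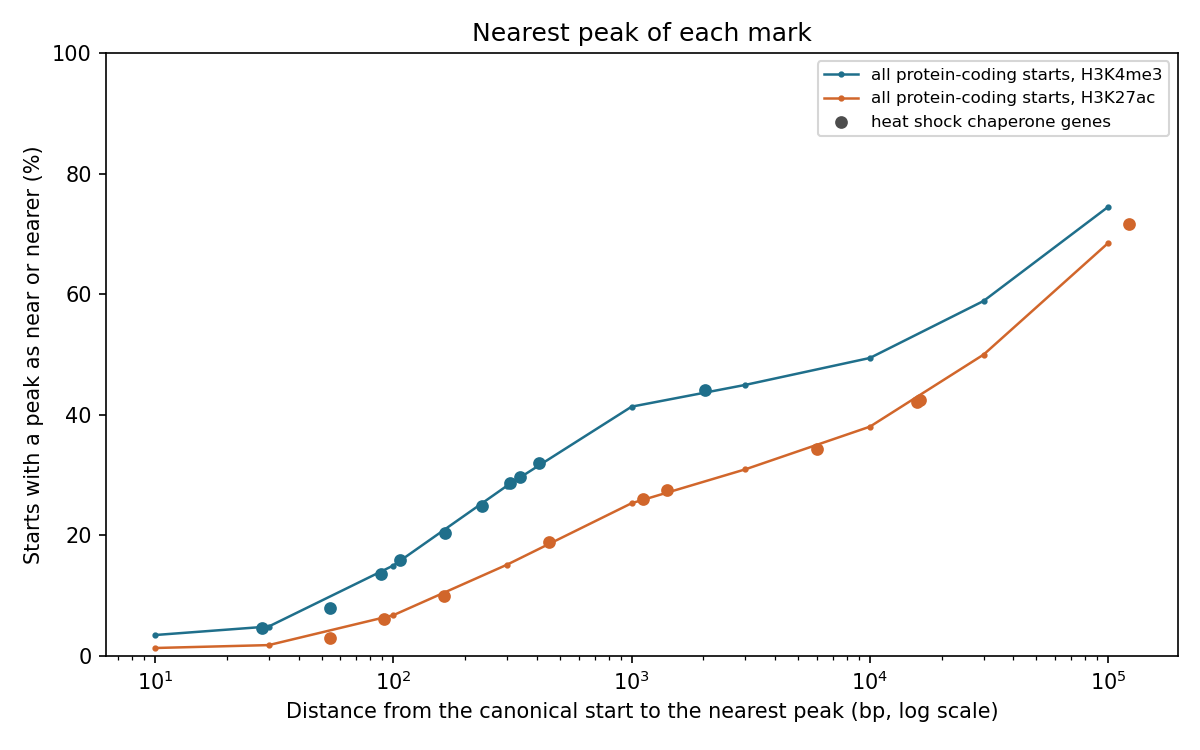
Distance from the canonical start to the nearest peak, in bp on a log axis, against the percent of protein-coding starts with a peak as near or nearer. Points are the 10 genes (H3K4me3 blue, H3K27ac orange) and lines all protein-coding genes, and the points lie between 28 and 2024 bp for H3K4me3 and between 54 and 122012 bp for H3K27ac.

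The H3K4me3 peaks at these starts had lower medians than those at all marked starts, with a wide range among the genes. Taking the highest peak within 1 kb of the outer end, the median −log10 q was 3.13 over the 8 marked members and 3.76 over 7705 marked protein-coding genes, and the widest peak had a median of 300 bp against 411 bp. These member medians include the peaks at HSPA1A (310 bp), HSP90AA1 (271 bp), HSPD1 (315 bp) and HSF1 (183 bp). Each of those lay nearer to the canonical start of a gene outside the 10. The peaks of HSPA1A and HSF1 also enter the medians from the canonical start. From the canonical start the medians were 2.97 over 9 members against 3.76 over 8331 genes, and 353 bp against 416 bp. The highest values at the canonical start were 7.09 at HSPA8, 6.62 at HSPA9 and 4.60 at HSPD1 and HSPE1, which share that peak, and the others ran from 1.51 at HSP90AA1 to 2.97 at HSPA1A. The 7.09 at HSPA8 belonged to a peak over exons that began 909 bp after the start. The H3K4me3 peak nearest to that start had 3.87. For H3K27ac the medians of the members were the higher ones. The medians from the canonical start were 6.12 over 4 members against 3.05 over 5085 genes, and 550 bp against 330 bp. From the outer end they were 6.37 over 2 members against 3.05 over 4753 genes, and 524 bp against 327 bp. Those 2 members were HSPA9 (10.3, 770 bp) and HSPD1 (2.45, 278 bp), and HSPD1 was below the median of all genes in both measures. The 4 values from the canonical start were 10.3 at HSPA9, 8.44 at HSPA8, 3.80 at HSP90AB1 and 3.23 at HSP90AA1. With so few genes and no replicate, these differences have no error estimate.

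**Figure D4:**
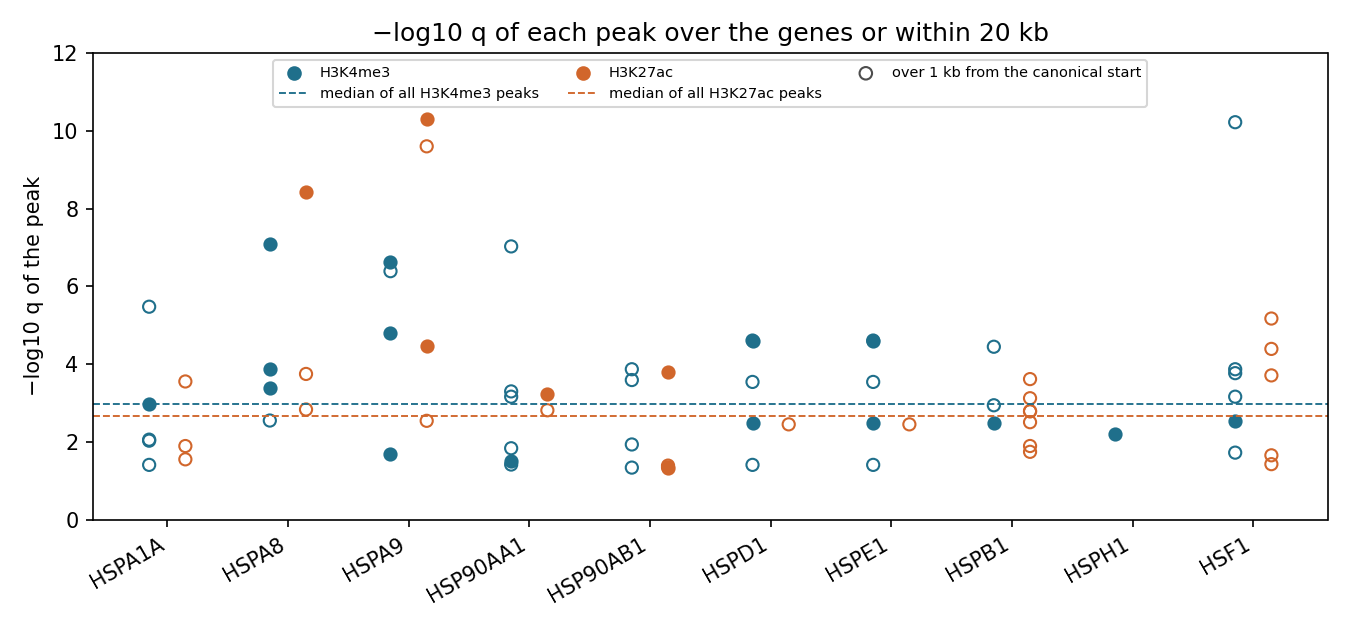
The −log10 q of every peak over each of the 10 genes or within 20 kb, for H3K4me3 (blue) and H3K27ac (orange), whose values are comparable only within a mark, with dashed lines at the median of each list. Filled points are peaks within 1 kb of the canonical start and open points are farther, and the H3K27ac peaks of 10.3 upstream of HSPA9 and 8.44 at HSPA8 stand highest among the filled points of that mark.

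Of the cytosolic HSP70 genes, HSPA8, which encodes the constitutive HSC70 protein, carried both marks just inside the gene. An H3K27ac peak of 663 bp (chr11:122932128-122932790, −log10 q 8.44, 2 summits) began 54 bp after the canonical start and extended from exon 1, which is untranslated there, into an intron. Its −log10 q was above that of 99.1% of the H3K27ac list. Within it lay H3K4me3 peaks of 185 bp (−log10 q 3.87) and 204 bp (3.38). Farther into the gene followed the widest H3K4me3 peak of any member window, 1466 bp over exons 2 to 5 (chr11:122930470-122931935, −log10 q 7.09, 3 summits), wider than 99.6% of the list. It began 909 bp after the canonical start. A further H3K4me3 peak of 316 bp (2.55) lay at exon 7. The 2 remaining H3K27ac peaks of the window were 225 bp and 185 bp wide and lay 2599 and 4224 bp upstream. No peak lay at the outer end of HSPA8, 1094 bp away from the canonical start, and the 3-unit element printed above ended 97 bp from the peaks of both marks.

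HSPA1A, the strongly heat-inducible HSP70 gene, had 1 H3K4me3 peak near its start and no H3K27ac peak there. The H3K4me3 peak (chr6:31782701-31783010, 310 bp, −log10 q 2.97) lay from -619 to -310 bp relative to the start, where negative means upstream. It was nearer to the divergent neighbour HSPA1L, whose canonical start was 50 bp away. After the gene, H3K4me3 peaks of 222 bp (1.41) and 315 bp (5.47) lay 2666 and 5910 bp downstream of the start, and the second overlapped an H3K27ac peak of 219 bp (1.55). The near-identical copy HSPA1B starts 12195 bp away, and an H3K27ac peak of 827 bp (3.55) lay 816 bp from its start. In that peak, 40.5% of the 32-base words occurred more than once in the assembly, and 41.1% did within 1 kb of the HSPA1B start. In the exons of HSPA1A the share was 76.7%, and it was 41.0% within 1 kb of its start. How reads with several possible places were handled is not stated, so a missing peak over these bases and reads that could not be placed cannot be told apart.

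HSPA9, which encodes the mitochondrial HSP70 mortalin, had the highest H3K27ac value of any member start. The peak (chr5:137911830-137912599, 770 bp, −log10 q 10.3) lay 740 bp upstream of the canonical start and was above 99.7% of the list. The H3K4me3 peak under it (chr5:137911841-137912083, 243 bp, 6.62) was above 93.5% of its own list. In both peaks many 32-base words were repeated in the assembly, 53.5% and 58.0%. The part of such reads in the peak values was not tested. Within 1 kb of the HSPA9 start as a whole, the share was 6.70%.

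A second pair of peaks lay on the other side of the HSPA9 start, reaching into exon 1, and none of its words were repeated. H3K4me3 had 290 bp there (chr5:137910712-137911001, −log10 q 4.79) and H3K27ac 212 bp (chr5:137910788-137910999, 4.45), beginning 89 and 91 bp after the start. HSPA9 was thus marked on both sides by both modifications. The remaining high peaks of its window, H3K27ac with 9.60 and H3K4me3 with 6.39, lay near the start of ETF1, which encodes a translation release factor.

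HSP90AA1, the inducible HSP90, and HSP90AB1, the constitutive one, differed in the order of the marks at their starts. At HSP90AA1, peaks of both marks overlapped upstream of the canonical start, H3K4me3 of 353 bp (chr14:102553722-102554074, −log10 q 1.51) and H3K27ac of 437 bp (chr14:102553833-102554269, 3.23). The H3K4me3 value was above only 5.96% of its list, and the H3K27ac value above 67.3% of its own. The highest H3K4me3 peak of the gene lay over exon 3 (chr14:102551900-102552129, 230 bp, 7.02), and 3.02% of its words were repeated. The outer end of the gene, 52655 bp from the canonical start, had an H3K4me3 peak of 271 bp (3.30), and that end lies 196 bp from the outer end of WDR20.

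At HSP90AB1, H3K27ac was present inside an intron without H3K4me3. That peak (chr6:44215001-44215239, 239 bp, −log10 q 3.80) began 163 bp after the canonical start, had no repeated words, and was above 80.1% of the H3K27ac list. Further H3K27ac peaks followed at 751 bp (187 bp wide, 1.33) and 4239 bp (212 bp wide, 1.39), both near the lowest value of the list, 1.30. Repeated words made up 0% of the peak at 751 bp and 51.4% of that at 4239 bp. The nearest H3K4me3 peak was 238 bp wide (1.34) and lay 2024 bp downstream, near the lowest value of that list, 1.31. In this H3K4me3 peak 15.5% of the words were repeated. The sequence of the first peak is printed on the plus strand as the higher of the peaks at the one member start where only H3K27ac was found.
HSP90AB1 H3K27ac peak: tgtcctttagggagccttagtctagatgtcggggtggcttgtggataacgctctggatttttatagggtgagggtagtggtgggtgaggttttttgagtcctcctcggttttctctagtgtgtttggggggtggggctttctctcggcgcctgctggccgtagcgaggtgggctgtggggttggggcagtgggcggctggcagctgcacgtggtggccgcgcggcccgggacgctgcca

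HSPD1 and HSPE1, which encode the mitochondrial chaperonin HSP60 and its lid HSP10, are transcribed away from each other, with canonical starts 539 bp apart. H3K4me3 lay on both sides of this shared region, over an intron of HSPD1 (chr2:198363807-198364400, 594 bp, −log10 q 4.60) and over an intron of HSPE1 (chr2:198365210-198365624, 415 bp, 2.49). The peaks left 809 bp between them with no peak. H3K27ac was absent from both canonical starts, and its only peak in either window (278 bp, 2.45) lay 66 bp from the canonical start of MOB4, and an H3K4me3 peak of 315 bp (4.60) lay 153 bp from it. The outer end of HSPD1 lies 16897 bp upstream of its canonical start and 1166 bp from the outer end of MOB4, so the H3K27ac call of HSPD1 from the outer end was this peak. The 3-unit matches of HSPD1 lay 294 and 299 bp before the canonical start of HSPE1, in the stretch with no peak, and 392 and 397 bp from the nearest H3K4me3 peak.

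HSPB1, which encodes the small heat shock protein HSP27, had H3K4me3 just after its start and a row of H3K27ac peaks around the gene. The H3K4me3 peak (chr7:75932018-75932463, 446 bp, −log10 q 2.49) began 28 bp into exon 1, the shortest distance of the 10 genes, and only 4.64% of protein-coding starts had a peak as near. None of the 7 H3K27ac peaks lay within 1 kb of the start. The nearest was 525 bp wide (3.12), covered exons 2 and 3 and began 1118 bp after the start. Upstream, 5 H3K27ac peaks lay between -11980 and -3467 bp relative to the start, with widths from 217 to 468 bp and −log10 q from 1.74 to 3.61, and 1 of them overlapped an H3K4me3 peak of 379 bp (2.94). HSPB1 was the nearest protein-coding canonical start for all 7. The share of repeated words in the 5 upstream peaks ranged from 12.5% to 100.0%, and it was 36.4% in the H3K27ac peak over exons 2 and 3.

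HSPH1, the HSP110 that exchanges nucleotide on HSP70, had the fewest peaks. A single H3K4me3 peak (chr13:31735369-31735634, 266 bp, −log10 q 2.21) overlapped exon 1, 407 bp after the canonical start, above 25.2% of its list. No H3K27ac peak lay in the window, and the nearest was 122012 bp from the start. The sequence there is mappable by this measure, with 0 repeated words within 1 kb of the start and 0.832% in the exons. The 3-unit element of HSPH1 lay 454 bp from the H3K4me3 peak.

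HSF1, the transcription factor itself, had 1 narrow H3K4me3 peak of 183 bp (−log10 q 2.53) ending 235 bp before its canonical start. That peak lay 31 bp from the canonical start of the divergent BOP1, a ribosome biogenesis gene. The nearest H3K27ac peak of HSF1 (280 bp, 1.42) lay 1411 bp upstream. Its window was among the richest in peaks, with 6 for H3K4me3 and 5 for H3K27ac, but DGAT1, a triglyceride synthesis gene, was the nearest start for 3 of the former and 4 of the latter. These included the highest H3K4me3 peak of any member window (845 bp, 10.2) and the widest H3K27ac peak (1550 bp, 5.17). No peak of either mark lay over the body of HSF1 in the 31010 bp that followed the upstream peak.

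The 3-unit elements were set against the peaks. In the 4 promoters there were 6 such matches, including overlapping ones, and 0 of 6 lay under a peak of either mark. Over all promoters, 5.06% of 79 such matches did, so the count in the members was near the background. The nearest H3K4me3 peak lay 97 and 272 bp away at HSPA8, 253 bp at HSP90AA1, 392 and 397 bp at HSPD1, and 454 bp at HSPH1. The nearest H3K27ac peak was equally close at HSPA8 and 364 bp away at HSP90AA1, whereas it was 16047 and 16052 bp away at HSPD1 and 122059 bp at HSPH1.

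Processed pseudogenes copied from these genes were examined because their reads can be confused with those of the parent exons. The annotation held 73 named for members, of which 25 belonged to HSPE1, 18 to HSPD1, 16 to HSPA8 and 11 to the HSP90A family. H3K4me3 overlapped 0 of 73, against 0.718% of 10585 processed pseudogenes, and H3K27ac overlapped 0 of 73, against 0.756%. In the exons of the parents, repeated 32-base words made up 68.2% at HSPD1, 63.7% at HSPE1, 52.5% at HSPA8, 46.9% at HSP90AA1 and 44.1% at HSP90AB1. The share was 28.9% at HSPB1, 14.7% at HSPA9 and 0% at HSF1.

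The other chaperones, a list of 64 genes, gave a setting for these values. From the outer end, 38 of 64 (59.4%) had H3K4me3 and 22 of 64 (34.4%) had H3K27ac, with both in 17 and neither in 21, and from the canonical start the counts were 44 and 26, with both in 23 and neither in 17. By family, from the canonical start, 7 of 8 genes of the cytosolic chaperonin TRiC had H3K4me3 and 5 of 8 H3K27ac, against 2 of 8 each for the small heat shock proteins. The J-domain co-chaperones, which stimulate HSP70, had 10 of 13 and 5 of 13, and the nucleotide exchange factors 6 of 7 and 3 of 7. The 21 without either mark at the outer end were HSPA2, HSPA12A, HSPA12B, HSPA4L, HSPB2, HSPB3, HSPB6, HSPB7, HSPB8, CRYAA, CRYAB, DNAJA3, DNAJB6, DNAJC7, BAG4, STIP1, CDC37, PPID, TCP1, CCT3 and HSBP1. Of these, HSPB8, DNAJC7, STIP1, CCT3 and HSBP1 had both marks at the canonical start, and HSPA12A had H3K4me3 there. The widest H3K4me3 peaks at an outer end were those of the TRiC subunit CCT5 (1312 bp), of HSPB11 (803 bp), listed in the annotation as IFT25 and known for a part in cilia, and of the HSP90 co-chaperone CHORDC1 (708 bp). Over the marked genes of the list, the median of the widest H3K4me3 peak at the outer end was 457.5 bp, against 300 bp in the 8 marked members. The latter includes the peaks at HSPA1A, HSP90AA1, HSPD1 and HSF1, which lay nearer to a neighbour's canonical start. How often this holds in the list of 64 was not counted.

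**Figure D5:**
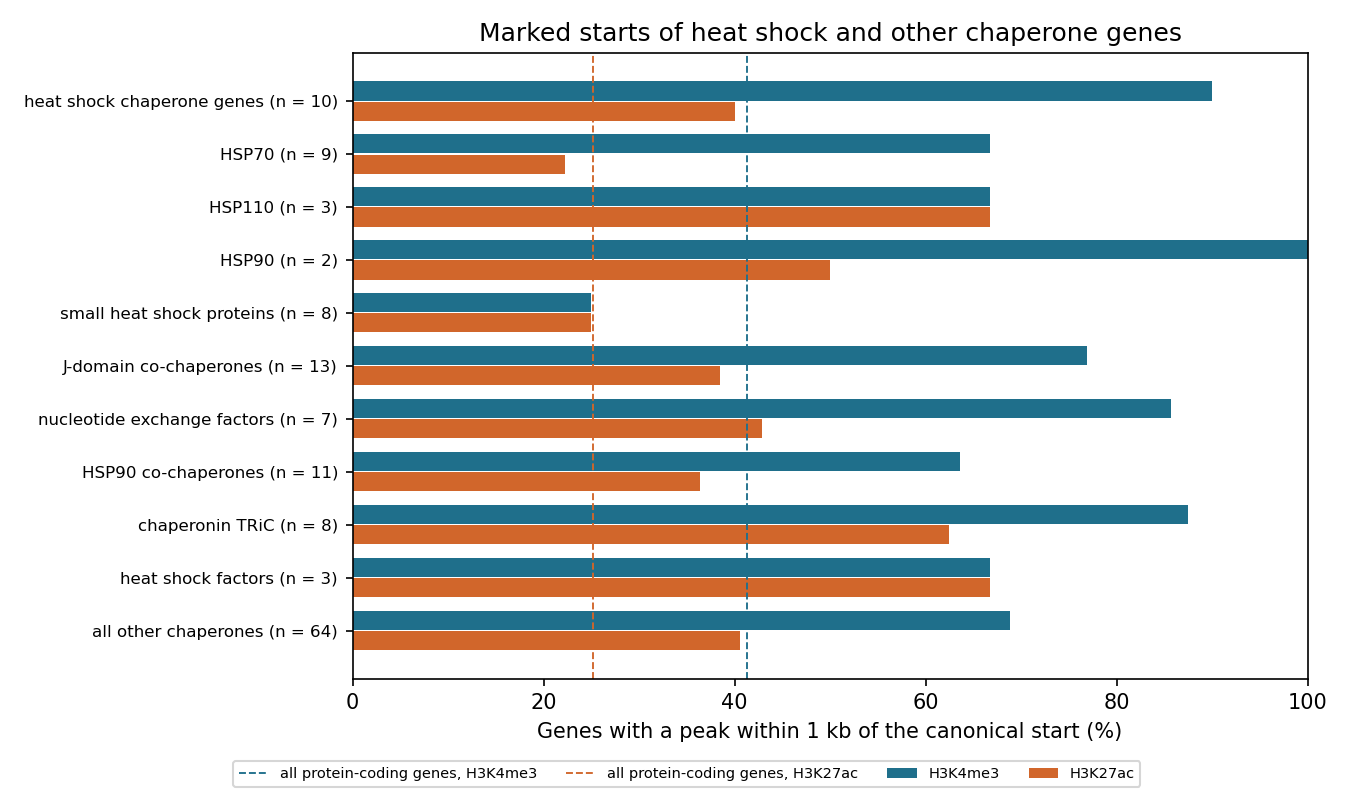
Share of genes with a peak within 1 kb of the canonical start, in percent, for the 10 heat shock chaperone genes, for each family of the other 64 chaperone genes and for these together. Dashed lines give all protein-coding genes (41.3% for H3K4me3 and 25.2% for H3K27ac), and some families hold as few as 2 genes.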

How the data were processed

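ChIP-seq peaks of H3K4me3 and H3K27ac in H2087 cells were analysed, 1 library each. The submitters' processing notes name bcl2fastq 1.8.4, Bowtie 1.1.1, SAMtools 1.2, Picard 1.118, MACS2 2.1.0 and ChIPseeker 1.6.6, with hg19 (GRCh37). The study names normalization as the role of the input. Thresholds, duplicate handling and whether the input was the control in peak calling are not given in the sources used here. The deposited lists give each peak's position and, in a column without header, a value read from the numbers alone as the −log10 q made by the authors' caller. Listed once per summit by the authors, 20282 H3K4me3 and 25275 H3K27ac entries were reduced to 18585 and 24096 distinct peaks, each with its highest value. Read depth is not known, so the precision of a single peak cannot be stated.

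Gene positions came from GENCODE release 44 lifted to the same build, with positions counted from 1, and 0 of 42681 peaks passed a chromosome end. A start was marked when a peak edge lay within 1 kb. Of 20163 genes, 19881 carried a canonical transcript tag. HSPB11 was found through RefSeq synonyms under its newer symbol. Repeated words were 32-base words found more than once in the assembly on either strand. Promoter windows ran from 250 bases before to 50 after the canonical start. Scripts used Python 3.11.15, numpy 2.4.6 and matplotlib 3.10.9 and were tested on simulated data. The genes named are the 10 members and the other chaperone genes without either mark at the outer end. Also named are the 3 other chaperone genes with the widest H3K4me3 peak there, and genes whose start lies near a described peak. HSPA1B, SFTPB, SFTPC, NAPSA and PECAM1 were named after their values were seen. Members and lists were chosen with earlier results of these data known. Alternatives were other distances, windows, starts, peak sets and motif rules. No test was run, because each mark had 1 library.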

Additional observations from a re-analysis of the deposited data

How the results depend on the processing

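No paired analysis was possible because the marks were profiled in 1 library each, and for the same reason no replicate could be left out. Over 14 results, 54 alternatives were tried, of which 41 stayed within a factor of 1.5 of the reported value and 13 did not. Counts of members cannot exceed 10, so those already near 10 could leave that range only by falling. With peaks at or above the median −log10 q of their list, the count of marked outer starts fell to 5 for H3K4me3 and 1 for H3K27ac, starts with both marks to 1, window peaks to 21 for H3K4me3 and 17 for H3K27ac, and other chaperone starts with H3K27ac to 14. H3K27ac at member starts was the count most open to the definition of a start, being 2 from the outer end, 6 within 3 kb of it, 6 from the start of any transcript and 4 from the canonical start, the last added after seeing the data. No share of all protein-coding genes is given for peaks at or above the median −log10 q or for the 3 kb distance. Those counts therefore cannot be set against the background. Merging peaks within 1 kb gave a median H3K27ac width of 1045 bp, and a distance of 3 kb gave a median H3K27ac −log10 q of 3.46. A heat shock element was found in 7 promoters with 2 units and in 7 with 3 units and 1 mismatch, against 4. The causes were not tested, beyond the wider definitions admitting more peaks or matches and the stricter set holding fewer. Depth, unknown here, limits every count of unmarked genes.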

Other observations

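The promoters of the 10 genes were rich in G and C, as were promoters in general. In the promoter windows around the canonical start, the median GC content was 65.0% in the members and 63.7% over 20140 promoters, and the ratio of observed to expected CpG had a median of 0.909 against 0.773. HSF1 had the highest GC content of the 10 (81.0%), and HSP90AB1 the lowest (57.0%). HSPA1A had the lowest CpG ratio (0.55) and HSP90AA1 the highest (1.2). These values describe the reference sequence, and their relation to the marks was not tested.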
